A study of Homo sapiens with 24 samples.

Results

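The comparison described here is luteolin against its solvent in A2780, a human ovarian cancer cell line. Its members are the 3 A2780 libraries titled luteolin and the 3 titled DMSO, 6 of the 24 libraries of the series, picked out by their titles. The series measured transcripts by RNA sequencing in A2780 and in ES2, another human ovarian cancer line, each with luteolin, DMSO, an siRNA against the kinase VRK1 (siVRK1) or a control siRNA (siCtrl), in 3 libraries per group. All groups carry the genotype label WT, and neither a dose of luteolin nor a treatment time stands in the sources used here. Whether replicate libraries came from different cultures is not stated, so a p-value measures only the spread between libraries, which may be technical.

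Luteolin is a flavone found in many plants, and in cell culture it is known as an inhibitor of several protein kinases. CDKN1A and GDF15, the genes set as markers of this comparison, are both targets of p53, the transcription factor that restrains division and can trigger cell death after damage or other stress. CDKN1A (p21) blocks cyclin-dependent kinases, and in cells with p21 the DREAM repressor complex is known to hold down genes of the cell cycle through promoter elements.

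Levels are given as scaled TPM: the deposited TPM, a length-corrected share of each library, summed over the transcripts of a gene and divided by 1 factor per library (1.036, 1.062 and 1.037 for luteolin; 0.887, 0.8559 and 0.9478 for DMSO) that puts the median change of genes near 0. Changes are log2 differences of scaled TPM + 1, luteolin minus DMSO, with the standard error of the fit after ±, and are smaller than the true log ratio where a gene is near 1 TPM or lower. A gene was called higher or lower at a Benjamini-Hochberg adjusted p under 0.05 in limma. TPM hold no record of read depth, which is unknown here. Between 12761 and 12862 genes reached 1 TPM in the luteolin libraries and between 11862 and 11963 in the DMSO libraries, and log2 levels correlated across genes at 0.9897 to 0.9932 within the 2 groups and 0.9508 to 0.9600 between them, where genes are not independent replicates. Markers of ovarian epithelium were nearly silent: 6 of 17 reached 1 TPM in any library, and PAX8, MUC16, KRT7, KRT19, SOX17 and ESR1 stayed under 0.1 TPM, so the labelled tissue of origin is not visible in these markers. Summed leukocyte markers reached 4.97 to 8.32 TPM with luteolin and 3.02 to 3.65 TPM with DMSO, with CD3E and MS4A1 under 0.1 TPM. Summed endothelial markers were at 1.10 to 2.82 and 1.27 to 1.72 TPM, with CDH5, VWF, KDR, TEK and ERG under 0.1 TPM. Summed erythroid markers were at 22.5 to 25.3 and 23.1 to 25.3 TPM, with HBB under 0.1 TPM. Summed fibroblast markers, mostly POSTN and THY1, were at 130 to 138 TPM with luteolin and 253 to 306 TPM with DMSO, with FAP under 0.1 TPM. The part of these marker differences in the results was not tested. In bulk RNA, fewer cells of a type and less RNA per cell cannot be told apart.

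CDKN1A and GDF15 were each more than 10 times higher with luteolin, and the groups stood far apart. CDKN1A was at 782, 802 and 953 scaled TPM with luteolin and at 54.3, 60.8 and 51.0 with DMSO, a log2 change of 3.91 ± 0.08 (limma adjusted p = 1.27e-11). GDF15, a secreted stress cytokine, was at 903, 960 and 1102 scaled TPM with luteolin and at 51.3, 57.9 and 43.3 with DMSO, a change of 4.26 ± 0.09 (adjusted p = 2.36e-11). The lowest luteolin library of either gene lay above the highest DMSO library by a wide margin. The main coding transcript of CDKN1A held 86.3% of the gene's level with luteolin and 86.9% with DMSO, so the mix of its transcripts was alike while its level rose.

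**Figure D1:**
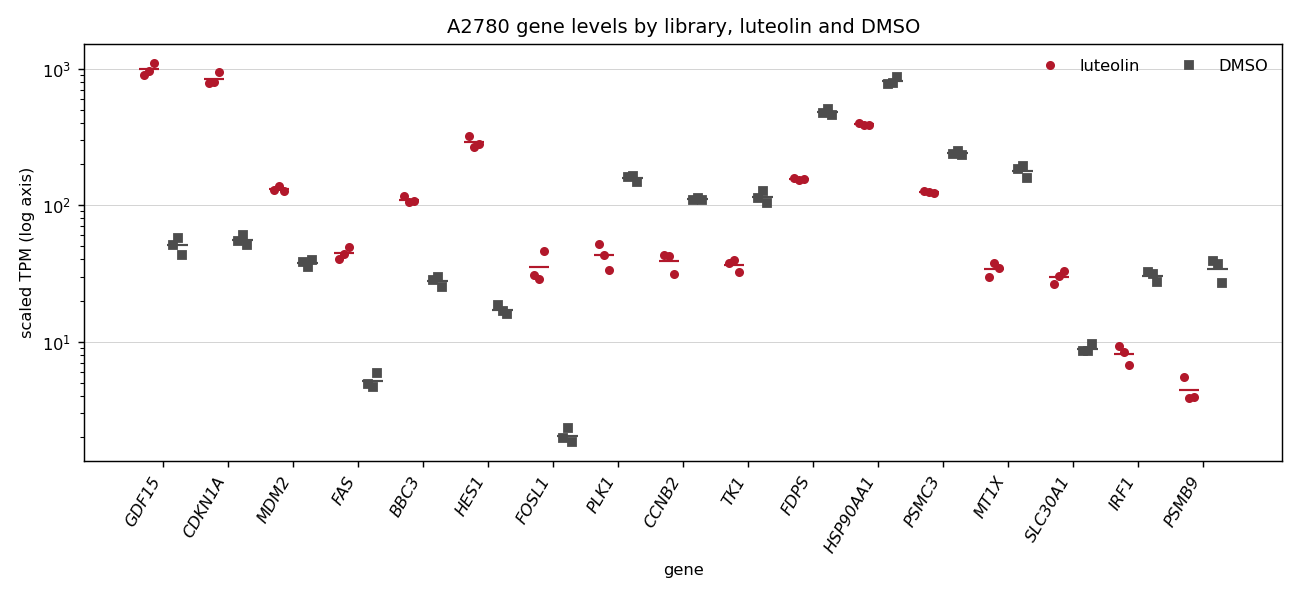
Scaled TPM (log axis) of 17 genes in each A2780 library, with 3 luteolin libraries (red circles) left of 3 DMSO libraries (grey squares) and a line at each mean. CDKN1A was at 782 to 953 with luteolin and 51.0 to 60.8 with DMSO, and PLK1 at 33.5 to 52.1 and 148 to 163.

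Changes across all genes were numerous. Of 13012 genes tested, 4241 (32.6%) were higher and 4213 (32.4%) lower with luteolin, 65% in all, and counts in the gene lists below are to be read against these shares. At least 2-fold changes were fewer, with 870 higher (6.69%) and 389 lower (2.99%). The split depends on scaling: the median change of all genes was 0.22 with TPM as deposited, which gave 5938 higher and 2585 lower, and −0.03 with quantile normalization, which gave 3694 and 4255. Changes also ran with the level of a gene. Genes were put in 5 equal groups by mean level. In the lowest group the median change was 0.34, and in the highest it was −0.31; with quantile normalization the 5 medians lay between −0.06 and −0.01. The siVRK1 comparison of the same line had medians between −0.02 and 0.05 over the same groups, so this slope was not seen there. What part the slope has in the falls of highly expressed families was not tested, and their values under quantile normalization stand beside them.

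**Figure D2:**
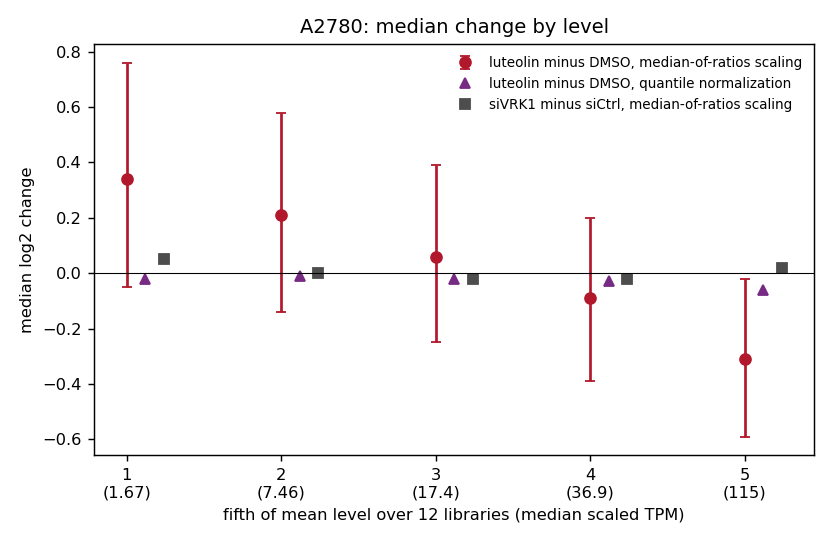
Median log2 change in 5 equal groups of genes by mean level over the 12 A2780 libraries (x axis, median scaled TPM in brackets) for luteolin minus DMSO (red circles, bars from the lower to the upper quartile), the same after quantile normalization (purple triangles) and siVRK1 minus siCtrl (grey squares). The red medians run down, 0.34 in the lowest group and −0.31 in the highest.

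The largest rises outside the p53 targets were in genes of several kinds. DUX4, an embryonic transcription factor encoded in repeated copies, was at 111, 144 and 234 scaled TPM with luteolin and at 1.89, 3.53 and 1.30 with DMSO (5.65 ± 0.30, adjusted p = 1.28e-08). The siCtrl libraries of the same line already stood above these DMSO libraries, with DUX4 at 27.4 ± 3.94 scaled TPM (SD, n = 3). Its level is uncertain because near-identical copies share reads, and its transcript DUX4-201, which is annotated as noncoding, held 71.9% of the level with luteolin and 34.7% with DMSO. SULF2, which trims sulfate groups from heparan sulfate at the cell surface, was at 29.5, 30.8 and 32.2 scaled TPM with luteolin, while its DMSO libraries were all under 1 scaled TPM (0.398, 0.879 and 0.960; change 4.2 ± 0.16). HES1, a repressor downstream of Notch, was at 320, 267 and 283 scaled TPM with luteolin and at 18.6, 16.7 and 16 with DMSO (4 ± 0.09, adjusted p = 2.21e-11). A retained-intron transcript held 31.3% of the HES1 level with luteolin and 20.1% with DMSO. ARC, an early gene best known in neurons, had 9.78, 11.7 and 13 scaled TPM with luteolin and 0.432, 0.579 and 0.654 with DMSO. The interleukin 3 receptor chain IL3RA (3.07 ± 0.19) lies in the pseudoautosomal region, and IDUA (3.34 ± 0.27) and SLC26A1 (3.01 ± 0.31) overlap in the genome, so the values of these 3 genes are uncertain.

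The largest falls were smaller than the largest rises. LIN28A, an RNA-binding protein of stem cells, had nearly the same value in each library of a group: 17.7, 17.2 and 17.9 scaled TPM with luteolin and 68.5, 69.1 and 67.3 with DMSO (−1.90 ± 0.04, adjusted p = 1.27e-11). PALM3 was at 10.4, 7.62 and 9.03 scaled TPM with luteolin and 54.5, 51.1 and 49.7 with DMSO (−2.40 ± 0.10). DNM3, a dynamin of endocytosis (−2.32 ± 0.08), LIMD2 (−2.37 ± 0.14) and the troponin TNNC1 (−2.06 ± 0.11) fell too. So did the Ras activator RASGRP2 (−1.95 ± 0.13) and the lactate exporter SLC16A3 (−1.89 ± 0.14). Only genes without overlap between the groups were eligible for this ranking, and 33.4% of all genes tested were lower without overlap.

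Targets of p53 were higher as a body. Over 3 lists of targets joined (arrest and secreted signals, cell death, and DNA repair and metabolism), 54 of 57 genes were tested, 49 were higher and 1 lower, with a median change of 1.44 against 0.02 over all genes tested. With quantile normalization these counts were 48 and 1. In the list of arrest and secreted signals 21 of 22 members were higher and SFN was not called (0.27 ± 0.16, adjusted p = 0.164; −0.10 with quantile normalization). PLK2, a kinase of the polo family, was at 119, 117 and 110 scaled TPM with luteolin and 9.01, 5.45 and 9.10 with DMSO (3.74 ± 0.17). The antiproliferative BTG2 was at 131, 142 and 163 scaled TPM with luteolin and 15.8, 15.6 and 14.1 with DMSO (3.17 ± 0.08). GADD45A, a stress sensor that binds cyclin B kinase, was at 179, 187 and 207 with luteolin and 27.5, 22.3 and 24.8 with DMSO (2.89 ± 0.08). The RNA-binding ZMAT3 (2.47 ± 0.11), the cytokine LIF (2.23 ± 0.13) and SESN1 (1.75 ± 0.08) followed. TP53INP1, from the list of p53 and its regulators described below, rose by 2.70 ± 0.09.

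Death-related targets rose too, with receptors and BCL2 family members among them. Of 15 tested members 13 were higher and 0 lower, while 2 were not called and TP53AIP1, TNFRSF10A and PHLDA3 were too low to test. FAS, a death receptor, was at 40.6, 43.7 and 49.3 scaled TPM with luteolin and 4.92, 4.64 and 5.89 with DMSO (2.89 ± 0.10, adjusted p = 9.97e-10). TNFRSF10B, a receptor for TRAIL, was at 219, 212 and 212 with luteolin and 74.3, 70.6 and 75.5 with DMSO (1.53 ± 0.04). BBC3 (PUMA), a BH3-only activator of death, was at 116, 106 and 107 scaled TPM with luteolin and 28.4, 29.6 and 25.1 with DMSO (1.95 ± 0.07). BAX, the pore-forming effector, was high in both groups, at 541, 528 and 530 with luteolin and 355, 378 and 308 with DMSO (0.62 ± 0.06). The groups of each of these 4 genes did not overlap, and the same held for 33.7% of all genes tested in the higher direction.

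Across the wider BCL2 family 9 of 16 tested members were higher and 5 lower, or 5 and 3 with quantile normalization. MCL1, which protects from death, was at 257 ± 7.79 scaled TPM with luteolin and 186 ± 7.36 with DMSO (SD, n = 3 each; 0.46 ± 0.04), and BCL2 was also higher (0.54 ± 0.13; 0.29 and not called with quantile normalization). BID, which carries a death signal to mitochondria (−0.52 ± 0.07), and BOK (−0.73 ± 0.14) were lower. Of 16 death receptor pathway genes 8 were higher and 5 lower, or 7 and 5 with quantile normalization. The adaptor FADD (−0.60 ± 0.06) was among the lower ones. The share of lower genes, 31.2% in each list, was near the 32.4% of all genes tested. With the main scaling the share of higher genes was 56.2% in the BCL2 family and 50% in the death receptor pathway, against 32.6% of all genes tested. With quantile normalization 5 of 16 BCL2 family members were higher, beside 3694 of all 13012 genes tested. BBC3 and BAX in the BCL2 family and FAS and TNFRSF10B in the death receptor pathway are p53 targets already counted above.

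Repair and metabolic targets followed with 15 of 17 higher. RRM2B, a p53-induced subunit of ribonucleotide reductase, was at 48.0, 53.6 and 54.6 scaled TPM with luteolin and 12.4, 12 and 14.2 with DMSO (1.94 ± 0.10). The nucleotide excision repair genes XPC (1.01 ± 0.05) and DDB2 (0.83 ± 0.06) and the translesion polymerase POLH (1.49 ± 0.19) were higher, and FANCC was lower (−0.27 ± 0.09, adjusted p = 0.0224). The call of FANCC was lost with TPM as deposited (−0.06) and when DMSO library 1 or 3 or luteolin library 1 or 3 was left out (−0.27 to −0.18). Among the regulators of p53 itself, 7 of 11 tested were higher and 2 lower. MDM2, the ligase that degrades p53, was at 129, 139 and 128 scaled TPM with luteolin and 38.0, 35.2 and 39.7 with DMSO (1.78 ± 0.08). Its transcript MDM2-225 held 30.3% of the gene with luteolin and 19.7% with DMSO, while MDM2-231, annotated as noncoding, held 13.7% and 34.8%. The phosphatase PPM1D was higher (0.90 ± 0.08), and the ligase COP1 was lower (−0.22 ± 0.06), a call lost with TPM as deposited (−0.00). A p53 half-site was searched on both strands of the 300 bases around the start (250 before to 50 after, RefSeq, GRCh38.p14). It was present for 4 of the 39 higher targets with a promoter in the table (10.3%: AEN, FDXR, PLK2 and RPS27L). The share was 6.54% for all 27305 promoters and 5.14% for the 10024 promoters of genes tested. Sites outside this window were not searched, and a match is no evidence of binding in these cells.

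**Figure D3:**
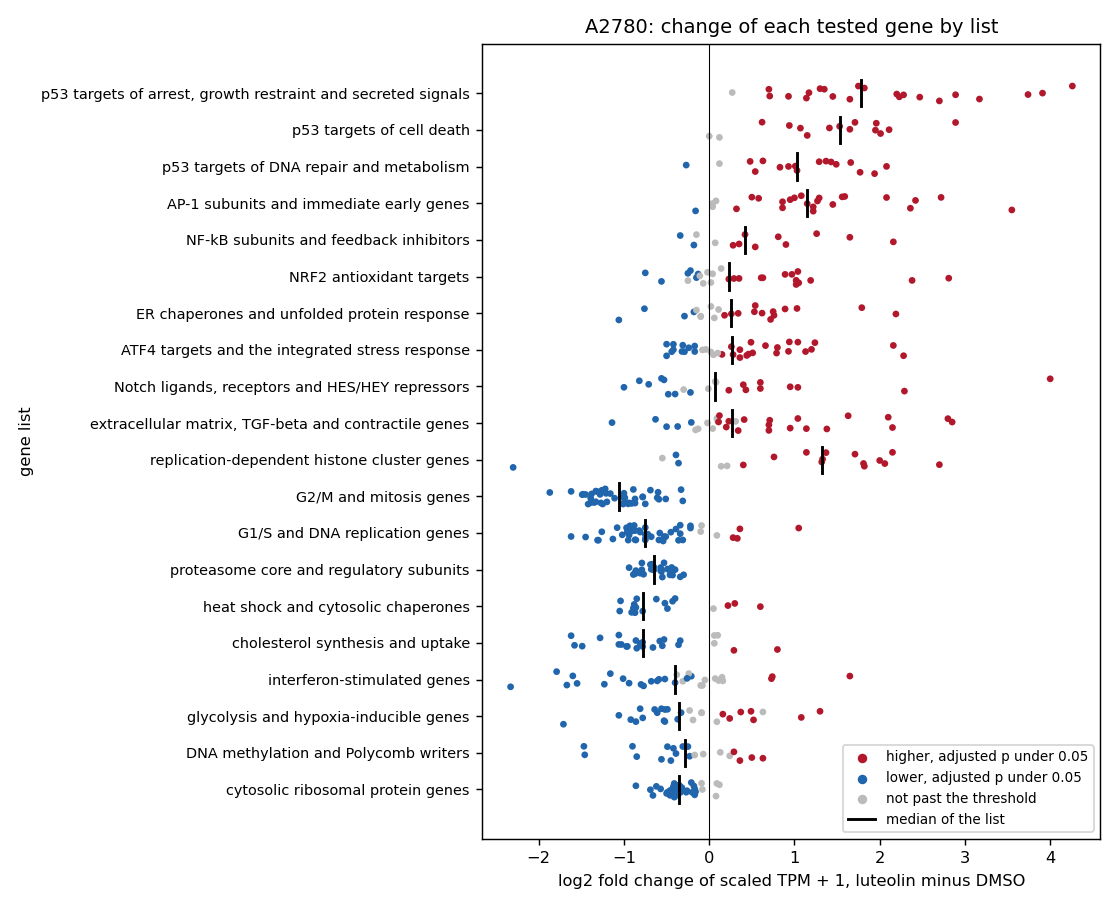
Log2 change of scaled TPM + 1 (x axis), luteolin minus DMSO, of each tested gene of 20 lists (rows), in red where higher, blue where lower and grey where not past the threshold, with a black line at each median. The p53 lists lie to the right (medians 1.78, 1.53 and 1.03), and the G2/M (−1.06), G1/S (−0.75) and proteasome (−0.65) lists to the left.

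Genes of the division phase fell together. Of the 44 genes listed for G2/M, all were tested and fell (44 lower, 0 higher; median −1.06), and 42 were lower with quantile normalization. PLK1, the kinase that drives mitotic entry and spindle assembly, was at 52.1, 43.0 and 33.5 scaled TPM with luteolin and 161, 163 and 148 with DMSO (−1.87 ± 0.11, adjusted p = 3.61e-08). MYBL2, a transcription factor of the same programme, was at 47.6, 43.9 and 36.9 with luteolin and 136, 136 and 127 with DMSO (−1.62 ± 0.08). Cyclin B2, CCNB2, was at 42.9, 42.4 and 31.2 with luteolin and 109, 112 and 110 with DMSO (−1.49 ± 0.09). In each of these 3 genes the third luteolin library was the lowest, and the DMSO libraries lay close to each other. CDK1, the mitotic cyclin-dependent kinase (−0.95 ± 0.06), CDC20, an activator of the anaphase-promoting complex (−1.01 ± 0.06), the proliferation marker MKI67 (−1.28 ± 0.13) and TOP2A (−0.89 ± 0.08) fell too. The smallest falls were those of CKS2 (−0.33 ± 0.06) and BUB3 (−0.31 ± 0.05), which with quantile normalization were at 0.02 and 0.00 and not called.

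Promoters of several of these genes hold a pair of short words known from cell-cycle genes: TTTGAA, the CHR element bound by the DREAM and MuvB complexes, and CCAAT, bound by NF-Y. Stretches of 4 such promoters are shown because they carry both words; TTTGAA and CCAAT matches on either strand are in capitals, and each stretch ends upstream of the start site (RefSeq, GRCh38.p14, plus strand for all 4). They are chr16:23678804-23678877 for PLK1, chr15:59104896-59105134 for CCNB2, chr10:60778158-60778197 for CDK1 and chr1:43358791-43358942 for CDC20.
PLK1: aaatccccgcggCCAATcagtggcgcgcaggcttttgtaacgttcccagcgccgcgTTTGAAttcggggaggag
CCNB2: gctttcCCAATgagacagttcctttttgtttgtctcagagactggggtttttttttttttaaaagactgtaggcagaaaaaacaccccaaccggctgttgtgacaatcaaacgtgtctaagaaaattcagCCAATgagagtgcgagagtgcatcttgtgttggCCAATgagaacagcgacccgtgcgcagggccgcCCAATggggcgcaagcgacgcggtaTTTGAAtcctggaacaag
CDK1: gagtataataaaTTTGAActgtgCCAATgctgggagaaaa
CDC20: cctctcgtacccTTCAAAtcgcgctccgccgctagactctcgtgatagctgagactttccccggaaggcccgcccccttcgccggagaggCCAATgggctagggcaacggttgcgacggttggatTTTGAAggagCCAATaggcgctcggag

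In PLK1 and in CCNB2 the TTTGAA match begins 29 bases before the start site, and CCNB2 has 4 CCAAT matches upstream of it. Over the 300-base promoters, TTTGAA was present for 25 of the 37 G2/M genes with a promoter in the table (67.6%), 1 of 37 G1/S genes (2.7%), 15.4% of all 27305 promoters and 9.56% of the 10024 promoters of genes tested here. CCAAT was present for 75.7% of the same G2/M promoters, 54.1% of the G1/S promoters and 35.7% of all promoters. The 2 words do not overlap each other in any sequence shown. G2/M genes are a class known for TTTGAA, and all 37 were lower, so its share in them is no finding about luteolin. A match describes the letters and is no evidence of binding in these cells.

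Genes of the G1/S transition and of DNA replication fell as well, with exceptions. Of 48 tested, 41 were lower and 4 higher (median −0.75), or 35 and 6 with quantile normalization, and CDK6 was nearly silent and not tested. Thymidine kinase TK1 was at 37.5, 39.6 and 32.2 scaled TPM with luteolin and 112, 128 and 103 with DMSO (−1.62 ± 0.08). MCM6, a subunit of the replicative helicase, was at 39.6, 40.2 and 37.2 with luteolin and 98.7, 95.9 and 99.7 with DMSO (−1.31 ± 0.04, adjusted p = 3.33e-10). The helicase cofactors GINS2 (−1.45 ± 0.07) and CDC45 (−1.26 ± 0.07) and the transcription factor E2F1 (−0.87 ± 0.07) were lower. E2F7, a repressor of E2F targets, was higher, with 23.0, 21.1 and 21.5 scaled TPM against 10.1, 9.56 and 10.4 with DMSO (1.05 ± 0.08), as were cyclin D1, CCND1 (0.36 ± 0.05), and CCND3 (0.33 ± 0.05). POLE was at the edge of the threshold (0.28 ± 0.11, adjusted p = 0.0402), and its call was lost when any library but luteolin 3 was left out (0.21 to 0.30). PCNA, the sliding clamp, was at 369, 380 and 357 with luteolin and 339, 359 and 343 with DMSO and was not called (0.09 ± 0.04, adjusted p = 0.064). It was called higher with TPM as deposited (0.31), with quantile normalization (0.52) and with a filter of 5 TPM (0.14). The same held when DMSO library 2 (0.11) or luteolin library 3 (0.12) was left out.

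CDKN1A was alone among the inhibitors of cyclin-dependent kinases in being called higher: 6 of the other tested members were lower. CDKN2A was at 7.56, 7.02 and 6.66 scaled TPM with luteolin and 20.1, 15.9 and 15 with DMSO (−1.15 ± 0.11), CDKN2C fell by 0.95 and CDKN3 by 1.5 on the log2 scale. In the list of homologous recombination and Fanconi anaemia, 19 of 31 members were lower and 2 higher (median −0.31), the higher ones being RAD51C (0.47 ± 0.06) and PALB2 (0.36 ± 0.08), the second not called with quantile normalization (0.19). Among writers of DNA methylation and Polycomb marks 12 of 20 were lower and 4 higher. UHRF1, which brings the maintenance methyltransferase to new DNA, was at 44.4, 40.0 and 37.9 scaled TPM with luteolin and 114, 115 and 115 with DMSO (−1.47 ± 0.05). DNMT3B (−1.46 ± 0.09) and EZH2 (−0.90 ± 0.06) were lower too. The lamin LMNB1 was at 88.8, 91.7 and 80.0 with luteolin and 222, 219 and 218 with DMSO (−1.33 ± 0.05), and LMNA was higher (0.77 ± 0.07). VRK1, the target of the siRNA arm, was lower with luteolin, at 39.9, 40.5 and 34.3 against 62.2, 57.0 and 62.0 with DMSO (−0.65 ± 0.08, adjusted p = 2.58e-05).

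Replication-dependent histone genes went against the other replication genes: 13 of 19 tested were higher and 3 lower, with a median of 1.32. H2BC12 was at 542, 533 and 584 scaled TPM with luteolin and 259, 263 and 231 with DMSO (1.14 ± 0.05), and H2BC21 was at 19.9, 16.9 and 16.7 with luteolin and 2.16, 1.78 and 1.75 with DMSO (2.70 ± 0.09). H2AC20, the neighbour of H2BC21, was lower, at 5.90, 7.11 and 3.58 with luteolin and 33.1, 35.3 and 23.9 with DMSO (−2.30 ± 0.21). Most of these genes make messages without a poly(A) tail, near-identical copies share reads, and whether the libraries selected poly(A) RNA is not stated, so their levels are uncertain.

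Early response genes were mostly higher. Of 25 tested AP-1 subunits and immediate early genes 21 were higher and 1 lower (median 1.15), or 22 and 0 with quantile normalization. FOSL1 was at 30.9, 28.7 and 45.8 scaled TPM with luteolin and 1.95, 2.32 and 1.83 with DMSO (3.55 ± 0.16). ATF3, a stress-induced repressor, was at 107, 96.4 and 100 with luteolin and 14.9, 11.7 and 17.7 with DMSO (2.72 ± 0.13). FOS was at 47.1, 31.6 and 30.8 with luteolin and 6.81, 5.23 and 6.50 with DMSO (2.36 ± 0.15). KLF2, a transcription factor of quiescence in endothelium and T cells, was higher (2.42 ± 0.11), and JUN was low in both groups, at 3.96 ± 0.573 scaled TPM with luteolin and 0.168 ± 0.0619 with DMSO (SD, n = 3 each). EGR1 was higher by less (0.50 ± 0.12).

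Feedback regulators of MAP kinase signalling were higher in 12 of 16 tested and lower in 2, or 11 and 0 with quantile normalization. DUSP6, the phosphatase of ERK, was at 339, 365 and 349 scaled TPM with luteolin and 215, 200 and 221 with DMSO (0.72 ± 0.05), and Sprouty SPRY1 was at 446 ± 11.8 with luteolin and 267 ± 9.12 with DMSO (SD, n = 3 each; 0.74 ± 0.05). Of 21 genes of the Notch pathway 9 were higher and 8 lower, so the rise of HES1 was not shared by the list. NOTCH1 was higher (1.04 ± 0.10) and NOTCH3 lower (−0.71 ± 0.06). Relatives of HES1 went both ways: HES4 (−0.53 ± 0.08) and HES6 (−0.48 ± 0.07) were lower, and HES2 was higher. Among NF-kB subunits and inhibitors 9 of 13 were higher and 2 lower. The feedback inhibitor NFKBIA was at 94.5, 89.8 and 101 with luteolin and 38.9, 38.6 and 39.2 with DMSO (1.26 ± 0.05), NFKBIZ rose by 2.16 ± 0.07 and TNFAIP3 by 1.65 ± 0.21, while NFKB1 was lower (−0.34 ± 0.05; −0.13 and not called with TPM as deposited).

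Stress genes of the endoplasmic reticulum and of ATF4, the main effector of the integrated stress response, moved unevenly. ATF4 itself was higher by a small margin (0.15 ± 0.05, adjusted p = 0.0167), a call lost without DMSO library 3 (0.12), without luteolin library 1 (0.12), without a filter (0.11) and in a fit of the 6 libraries alone (0.15). DDIT3 (CHOP) was at 122, 107 and 98.9 scaled TPM with luteolin and 24.5, 22.4 and 18.6 with DMSO (2.28 ± 0.09, adjusted p = 2.60e-09), and PPP1R15A, which reverses the translational block, was at 96.5, 88.8 and 96.6 with luteolin and 22.4, 21 and 17.6 with DMSO (2.16 ± 0.08). Enzymes of serine synthesis under ATF4 control were lower: PSAT1 was at 539, 539 and 510 with luteolin and 718, 738 and 785 with DMSO (−0.50 ± 0.04), and PHGDH fell by the same size (−0.50 ± 0.05). With quantile normalization they were at −0.05 and −0.04 and were not called. ASNS, asparagine synthetase, was lower (−0.31 ± 0.04) with the main scaling and had no direction with quantile normalization (0.01). Over the 36 ATF4 targets 20 were higher and 11 lower, or 23 and 2 with quantile normalization. Among 23 members of the unfolded protein response and ER folding list, 13 were higher and 4 lower, or 19 and 2 with quantile normalization. DNAJB9 was at 39.3, 40.7 and 34.7 with luteolin and 6.73, 6.96 and 9.17 with DMSO (2.19 ± 0.14), and HERPUD1 rose by 1.79 ± 0.07, while the abundant chaperone HSPA5 rose by 0.26 ± 0.04 and HSP90B1 was not called (0.06 ± 0.04, adjusted p = 0.209).

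Antioxidant targets of NRF2 included large rises. HMOX1, heme oxygenase, was at 160, 173 and 211 scaled TPM with luteolin and 23.5, 28.1 and 23.1 with DMSO (2.81 ± 0.10, adjusted p = 1.07e-09). The ferritin chain FTH1 was among the most abundant transcripts, at 8369, 7887 and 8507 with luteolin and 3630, 3784 and 3451 with DMSO (1.19 ± 0.07). The quinone reductase NQO1 was at 737, 680 and 686 with luteolin and 344, 351 and 338 with DMSO (1.02 ± 0.04). TXNRD1 (1.05 ± 0.05) and GCLM (1.02 ± 0.10) were higher. In all, 14 of 27 tested were higher and 6 lower, or 21 and 4 with quantile normalization. Flavones are known ligands of the aryl hydrocarbon receptor, yet AHR itself stayed at or under 0.118 scaled TPM in these libraries and CYP1A1 under 1. Of 5 tested genes of that axis 3 were higher and 1 lower, CYP1B1 among the higher ones (0.65 ± 0.06).

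Metallothioneins, small proteins that bind zinc and copper, fell, while a zinc exporter rose. MT1X was at 29.9, 37.7 and 34.7 scaled TPM with luteolin and 184, 192 and 159 with DMSO (−2.35 ± 0.09, adjusted p = 1.32e-09). MT2A was at 48.0, 45.2 and 49.1 with luteolin and 131, 119 and 81.2 with DMSO (−1.18 ± 0.18), and MT1F was at 1.30, 2.75 and 0.686 with luteolin and 17.2, 14.8 and 14 with DMSO (−2.74 ± 0.30). The 3 DMSO libraries of MT2A were spread more widely than those of MT1X, and their lowest still lay above every luteolin library. SLC30A1, which moves zinc out of the cell, was at 26.3, 30.2 and 32.7 with luteolin and 8.49, 8.54 and 9.57 with DMSO (1.63 ± 0.09). Metallothionein genes are near-identical copies, so reads may be split between them. The remaining members MT1E, MT1G, MT1M, MT1A and MT1H were too low to test.

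Genes of both directions in this group carry the core of the metal response element, the site of the zinc sensor MTF1, spelled TGCACNC or TGCGCNC. The promoter stretches of MT1X (chr16:56682308-56682435, plus strand), MT2A (chr16:56608334-56608583, plus strand) and SLC30A1 (chr1:211579162-211579222, minus strand; RefSeq, GRCh38.p14) are shown for that reason, with matches on either strand in capitals.
MT1X: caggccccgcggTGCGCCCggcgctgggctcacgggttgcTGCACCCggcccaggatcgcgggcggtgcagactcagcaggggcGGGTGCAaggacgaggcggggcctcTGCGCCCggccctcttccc
MT2A: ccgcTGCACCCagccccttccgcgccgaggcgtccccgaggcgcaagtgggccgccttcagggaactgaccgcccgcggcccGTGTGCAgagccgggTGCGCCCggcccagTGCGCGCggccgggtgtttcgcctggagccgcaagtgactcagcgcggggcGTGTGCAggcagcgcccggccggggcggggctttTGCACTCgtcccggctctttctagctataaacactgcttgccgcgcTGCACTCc
SLC30A1: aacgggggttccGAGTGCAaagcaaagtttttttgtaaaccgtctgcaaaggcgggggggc

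MT1X has 4 matches in its stretch, MT2A has 7 and SLC30A1 has 1. Matches that reach past the start site, which the SLC30A1 promoter also has, were neither shown nor counted here. The word is common: 29.3% of all promoters and 39% of those of genes tested hold it, so its presence does not set these genes apart. MTF1 itself was called higher (0.72 ± 0.23, adjusted p = 0.0172) with overlapping groups, 9.02, 11 and 6.10 scaled TPM with luteolin and 3.16, 5.47 and 6.14 with DMSO, and its call was lost with quantile normalization (0.50) and when DMSO library 1 (0.48) or luteolin library 2 (0.55) was left out.

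Interferon-stimulated genes, which cells express at rest through basal STAT and IRF activity, were mostly lower. Of 31 tested 18 were lower and 3 higher (median −0.40), or 22 and 2 with quantile normalization. Regulators were among those that fell: IRF1 was at 9.28, 8.38 and 6.74 scaled TPM with luteolin and 32.6, 31.3 and 27.5 with DMSO (−1.79 ± 0.11), and IRF9 fell by 1.6 on the log2 scale. Among the effectors, ISG15, a ubiquitin-like modifier, was at 79.1, 84.2 and 92.8 with luteolin and 205, 201 and 170 with DMSO (−1.16 ± 0.07). IFI35 was at 4.40, 4.13 and 4.02 with luteolin and 26.7, 28.0 and 21 with DMSO (−2.33 ± 0.12), and BST2 (tetherin), which holds virions at the cell surface, was at 159, 158 and 169 with luteolin and 300, 294 and 258 with DMSO (−0.80 ± 0.06). The higher members were TRIM22, which is also a p53 target (1.65 ± 0.18), STAT2 (0.74 ± 0.10) and XAF1 (0.73 ± 0.18; 0.40 and not called with quantile normalization).

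Antigen-processing genes split, with 5 of 15 tested higher and 8 lower. The immunoproteasome subunit PSMB9 was at 5.47, 3.83 and 3.95 scaled TPM with luteolin and 38.8, 37.1 and 26.9 with DMSO (−2.70 ± 0.17). TAP1, a subunit of the peptide transporter, whose gene is the neighbour of PSMB9 on the opposite strand, was higher: 47.9, 48.0 and 56.9 with luteolin and 41.4, 34.5 and 31.0 with DMSO (0.51 ± 0.10, adjusted p = 0.0009). TAP2 was lower (−0.61 ± 0.07), B2M, the light chain of class I molecules, fell to 672 ± 4.12 with luteolin, against 1192 ± 47.7 with DMSO (SD, n = 3 each; −0.83 ± 0.04), and HLA-B was higher (0.46 ± 0.13). HLA genes are highly variable between people, so the level counted on a reference transcript is uncertain.

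The interferon-stimulated response element has a core of GAAA and GAAA with any 2 bases between them. Stretches from ISG15 (chr1:1013372-1013411, plus strand) and BST2 (chr19:17405733-17405772, minus strand), which fell, and from TAP1 (chr6:32853811-32853850, minus strand), which rose, are shown with their matches in capitals; overlapping matches are joined, and those of TAP1 lie on the other strand (RefSeq, GRCh38.p14).
ISG15: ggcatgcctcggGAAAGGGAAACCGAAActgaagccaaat
BST2: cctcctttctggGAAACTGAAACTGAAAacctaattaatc
TAP1: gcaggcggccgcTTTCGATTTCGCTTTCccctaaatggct

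The core was present in the promoters of 9 of 14 lower interferon-stimulated genes (64.3%) and of 5 of 7 lower antigen-processing genes (71.4%), of 0 of 2 and 1 of 4 higher ones, and of 3.65% of all promoters. These lists are made of genes known for that element, so its share in them is no finding about luteolin.

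Proteasome subunits fell across the board. All 31 tested were lower and 0 higher (median −0.65), and 25 were lower with quantile normalization (median −0.33). PSMC3, an ATPase of the regulatory particle, was at 128, 125 and 122 scaled TPM with luteolin and 239, 250 and 234 with DMSO (−0.94 ± 0.05), and the catalytic subunit PSMB5 was at 384 ± 8.52 with luteolin and 571 ± 39.6 with DMSO (SD, n = 3 each; −0.57 ± 0.05), though not called with quantile normalization (−0.09). Cytosolic chaperones were lower in 15 of 19 and higher in 3 (median −0.78), or 13 and 3 with quantile normalization (median −0.39). HSP90AA1 was at 402, 389 and 385 with luteolin and 778, 789 and 869 with DMSO (−1.05 ± 0.05), and the mitochondrial chaperonin HSPE1 fell by 1.04 on the log2 scale. HSPA4L (0.60 ± 0.11) and HSPA1B (0.22 ± 0.06) were higher, as was HSPA1A, a near-identical copy of HSPA1B with overlapping groups (0.30 ± 0.11). The call of HSPA1A was lost when DMSO library 2 or 3 or any luteolin library but the second was left out (0.21 to 0.29). It was also lost with quantile normalization (0.24) and without a filter (0.26).

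Enzymes of cholesterol synthesis were lower in 20 of 25 tested genes and higher in 2 (median −0.78), with the same counts under quantile normalization. FDPS, which makes farnesyl diphosphate, was at 159, 154 and 156 scaled TPM with luteolin and 476, 509 and 457 with DMSO (−1.62 ± 0.04, adjusted p = 1.14e-10). EBP was at 55.4, 49.8 and 48.0 with luteolin and 154, 168 and 144 with DMSO (−1.58 ± 0.06), and ACAT2 fell by 1.49 on the log2 scale. The exporter ABCA1 was higher (0.80 ± 0.13). In glycolysis and the hypoxia response 15 of 28 were lower and 7 higher (median −0.35), or 15 and 6 with quantile normalization (median −0.18): ENO1 was at 1114, 1082 and 1086 with luteolin and 1977, 2015 and 1782 with DMSO (−0.81 ± 0.05), and PGAM1 (−0.92 ± 0.04) and TPI1 (−0.86 ± 0.04) fell. The secreted hypoxia targets VEGFA (1.08 ± 0.06) and ADM (1.30 ± 0.06) were higher.

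The most abundant families showed falls whose size depends on the scaling. Of 41 cytosolic ribosomal protein genes 36 were lower and 0 higher (median −0.36), but 15 were lower and 12 higher with quantile normalization (median −0.07). Nuclear genes of the respiratory chain were lower in 27 of 31 and higher in 0 (median −0.52), or 20 and 7 with that normalization (median −0.20). Nucleolar ribosome biogenesis genes gave 23 lower and 3 higher of 31 (median −0.21), or 8 and 9 (median −0.04), and splicing regulators 17 lower and 4 higher of 26 (median −0.39), or 10 and 10 (median −0.07). CLK1 (1.32 ± 0.14) and CLK4 (0.97 ± 0.14), kinases that phosphorylate splicing factors, were higher.

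The make-up of the RNA by transcript class also differed. Transcripts annotated as retained introns (27500 of those matched to GENCODE release 29) took 5.40%, 5.22% and 5.08% of the deposited TPM with luteolin and 3.42%, 3.26% and 3.48% with DMSO, a difference of 1.84 percentage points. Noncoding processed transcripts took 4.10%, 4.10% and 3.86% with luteolin and 3.21%, 3.13% and 3.32% with DMSO. For both classes the groups did not overlap and the exact two-sided permutation p was 0.1, the smallest that 3 against 3 libraries can give. Transcripts of nonsense-mediated decay took 2.41%, 2.38% and 2.28% with luteolin and 2.18%, 2.11% and 2.31% with DMSO, and those groups overlapped, a difference of 0.161 points (exact p = 0.2). As a share of the TPM outside mitochondrial mRNAs, that difference was 0.27 points (exact p = 0.1). The 13 mitochondrial mRNAs took 10.1%, 9.39% and 12.1% with luteolin and 7.37%, 7.97% and 5.96% with DMSO (exact p = 0.1). Singly, 6 of the 13 were higher, with MT-ND6, the only one coded on the light strand, at 5444, 4427 and 8379 scaled TPM with luteolin and 2137, 2532 and 1584 with DMSO (1.52 ± 0.28, limma adjusted p = 0.000384), and MT-ND5 at 1.40 ± 0.19. The other 7 were not called, and with quantile normalization 8 of the 13 were higher.

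**Figure D4:**
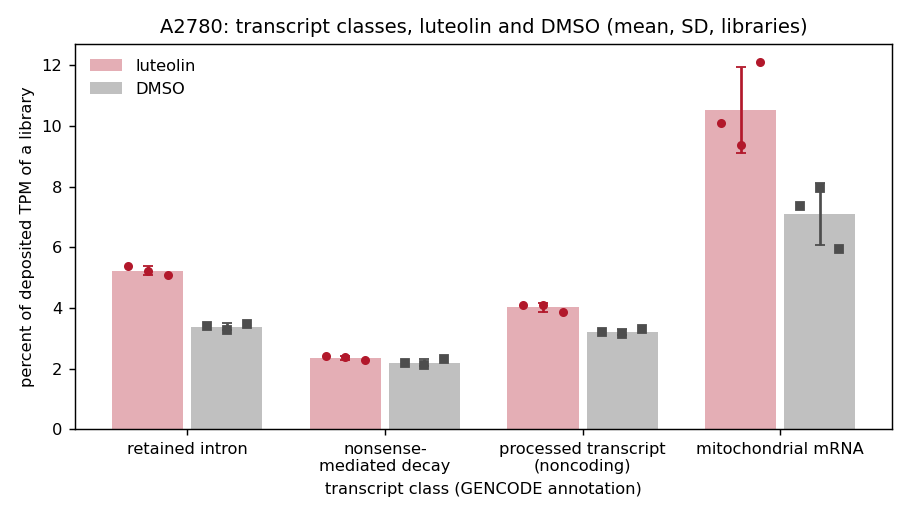
Percent of the deposited TPM of a library (y axis, from 0) in 4 transcript classes, with luteolin (red) left of DMSO (grey). Bars are means, error bars the SD of 3 libraries and points the libraries. Retained-intron transcripts took 5.08% to 5.40% with luteolin and 3.26% to 3.48% with DMSO.

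The same treatment was compared between the lines by testing the difference of the luteolin effects over all 24 libraries. The effect was more positive in A2780 than in ES2 for 3641 of 14328 genes (25.4%) and more negative for 3472 (24.2%), 49.6% in all, and at least 2-fold for 5.39% and 3.1%. In ES2 alone luteolin gave 21% higher and 24.7% lower, 45.7% in all. Most p53 targets had the more positive effect in A2780: of 56 tested, 45 had a more positive effect in A2780 and 5 a more negative one, 49 were higher and 0 lower in A2780, and 21 were higher and 4 lower in ES2 (medians 1.42 and 0.09). CDKN1A rose by 3.91 ± 0.12 in A2780 and by 1.39 ± 0.12 in ES2, where it was at 11.8 ± 2.95 scaled TPM with luteolin and 3.81 ± 0.170 with DMSO (SD, n = 3; difference of effects 2.52 ± 0.16, adjusted p = 3.41e-10). MDM2 rose by 1.79 ± 0.14 in A2780 and was not called in ES2 (−0.25 ± 0.14; difference 2.04 ± 0.20, adjusted p = 1.16e-07). For FAS the effects were 2.88 ± 0.13 and 0.36 ± 0.13 (difference 2.52 ± 0.18). GDF15 behaved otherwise, with effects of 4.26 ± 0.15 in A2780 and 3.74 ± 0.15 in ES2 and a difference of 0.53 ± 0.22 at the edge of the threshold (adjusted p = 0.0497).

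Most targets of ATF4 had the more positive effect in ES2. Of 36, 30 had a more negative effect in A2780 than in ES2 and 4 a more positive one (median difference −1.29), and in ES2 34 were higher and 1 lower. PSAT1 was lower in A2780 (−0.49 ± 0.04) and higher in ES2 (1.82 ± 0.04), at 269 ± 11.1 scaled TPM with luteolin and 75.4 ± 2.20 with DMSO in ES2 (SD, n = 3; difference −2.31 ± 0.05). SESN2, a target of both p53 and ATF4, rose by 0.93 ± 0.05 in A2780 and by 2.79 ± 0.05 in ES2 (difference −1.86 ± 0.07). For DDIT3 the effects were 2.28 ± 0.15 and 2.78 ± 0.15 and their difference missed the threshold (−0.50 ± 0.21, adjusted p = 0.0606). G2/M genes fell in both lines, 44 of 44 in A2780 and 42 of 44 in ES2 (medians −1.05 and −0.59), and the fall was deeper in A2780 for 33 of them. PLK1 fell by 1.86 in A2780 and by 1.19 in ES2 on the log2 scale (difference −0.68 ± 0.14, adjusted p = 0.000456). Interferon-stimulated genes had a more negative effect in A2780 for 19 of 32 and a more positive one for 4: IRF1 was at −1.78 ± 0.11 in A2780 and −0.01 ± 0.11 in ES2 (difference −1.77 ± 0.16).

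**Figure D5:**
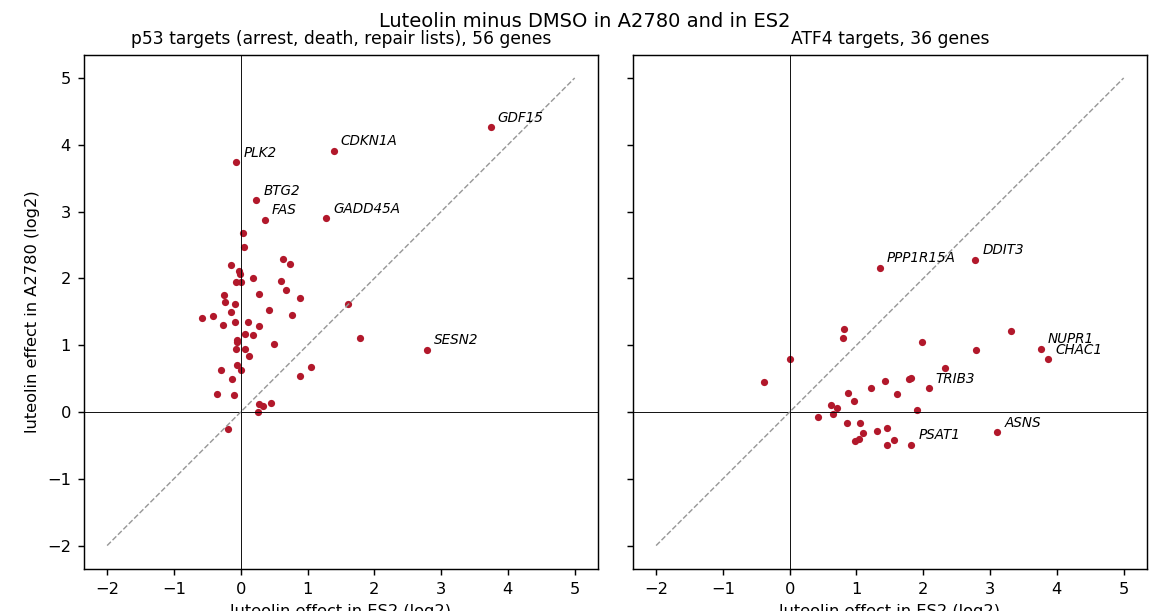
Luteolin minus DMSO on the log2 scale in A2780 (y axis) and ES2 (x axis), both from the fit of 24 libraries, for 56 p53 targets (left) and 36 ATF4 targets (right); the dashed line marks equal effects. Most p53 targets lie above the line (CDKN1A at 3.91 in A2780 and 1.39 in ES2), and most ATF4 targets below it (PSAT1 at −0.49 and 1.82).

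Within A2780 the luteolin effect was also set against the effect of siVRK1, each with its own control, and the difference was tested. It was positive for 3538 of 13012 genes (27.2%) and negative for 3696 (28.4%), at least 2-fold for 7.32% and 4.15%. With siVRK1 20.7% of genes were higher and 20.4% lower. CDKN1A rose by 3.91 ± 0.08 with luteolin and by 1.12 ± 0.08 with siVRK1 (difference 2.78 ± 0.11, adjusted p = 6.91e-09), and its siCtrl libraries, at 161 ± 6.30 scaled TPM, already stood above the DMSO libraries at 55.3 ± 4.98 (SD, n = 3 each). MDM2 went opposite ways, 1.78 ± 0.08 with luteolin and −0.64 ± 0.08 with siVRK1. PLK1 fell by 1.87 with luteolin, while its siVRK1 effect was not called (−0.27 ± 0.11, adjusted p = 0.0748; difference −1.6 ± 0.16). PLK1 was an exception among the 44 G2/M genes, of which siVRK1 lowered 36 and raised 1 (median −0.48); the luteolin effect was more negative than the siVRK1 effect for 33 and more positive for 1. ISG15 was lower with luteolin (−1.16 ± 0.07) and higher with siVRK1 (1.41 ± 0.07; difference −2.57 ± 0.10). The 31 interferon-stimulated genes did not share that rise, with 5 higher and 8 lower with siVRK1 (median −0.03). The smooth muscle actin ACTA2 rose with both, by 2.10 ± 0.06 and 2.34 ± 0.06, as did the connective tissue growth factor CCN2, by 2.85 ± 0.08 and 2.40 ± 0.08. VRK1 itself fell by 0.65 with luteolin and by 2.31 with siVRK1 on the log2 scale (difference 1.66 ± 0.12). HES1 (difference 4.35 ± 0.12), GDF15 (3.63 ± 0.13), KLF2 (3.68 ± 0.16) and PAQR6 (3.11 ± 0.21) had the more positive effect with luteolin, and CEND1 (−3.07 ± 0.19), the enteric actin ACTG2 (−2.76 ± 0.22), PTH2 (−2.67 ± 0.16) and calponin CNN1 (−2.58 ± 0.13) with siVRK1. Of the 41 ribosomal protein genes 39 had a more negative effect with luteolin, and 32 were higher with siVRK1; under quantile normalization the luteolin calls were split, as given above.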

How the data were processed

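RNA of 24 libraries from A2780 and ES2 cells was isolated as total RNA on columns; per the labels' protocols, library preparation and sequencing were done by a company. The authors deposited 1 table of TPM per transcript; kallisto, FastQC and the build hg19 are named in the submitters' processing notes, without versions, roles or a transcript set. Each library summed to 1000000 TPM, so depth is unknown and no counting interval can be given. Of 193845 lines, 1958 repeated another line with identical values and were dropped; 19 transcripts with more than 1 symbol and 9542 without one (0.514% to 1.03% of the TPM) were left out, and 28907 symbols remained. Transcript classes came from GENCODE release 29, to which 168749 of 191887 transcripts matched by ID. A strand setting is not stated, so overlapping genes may share reads.

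Samples were grouped by title, because the cell line labels of the libraries titled with 1 line carry numbers that count up from sample to sample. TPM were summed by symbol and divided by median-of-ratios factors over the libraries of each fit, and log2(scaled TPM + 1) was fitted with limma-trend (limma 3.58.1, R 4.3.3) for genes at 1 TPM or more in at least 3 libraries, p-values being adjusted by Benjamini-Hochberg across every tested gene, with calls at 0.05. The luteolin comparison and its difference from siVRK1 used the 12 A2780 libraries, and the difference between lines all 24; no replicate block was used. Shares of transcript classes were compared by exact two-sided permutation tests (scipy 1.17.1, Python 3.11.15). Named genes were CDKN1A, GDF15, genes marked as core in the lists, the 15 largest rises and falls past the threshold with an established symbol, no overlap between groups and a mean of 5 TPM or more in the higher group, up to 4 per list and direction, and 8 per difference and direction among genes also past the threshold for luteolin; other named members were chosen after their values were seen. The members and the gene lists were chosen with earlier results of these data known. Some items are not reported here. Promoters were matched by symbol to RefSeq sequences (GRCh38.p14). Alternatives were pseudocounts of 0.1 and 5, a filter of 5 TPM or none, TPM as deposited, quantile normalization, only the groups compared, a robust prior variance, no mitochondrial mRNAs, the replicate block and leaving out each library. Tested on simulated data of 12708 genes for the luteolin comparison, the fit recovered 96% of 2-fold and 81% of 1.5-fold changes, with 10 false calls. For the line difference (13469 genes) it recovered 90% and 70%, with 14 false calls, and for the treatment difference (12701 genes) 87% and 64%, with 10. Each simulation changed 100 genes per size, picked above a minimum level, and held no other group difference and no slope by level. The real data have far more changed genes and such a slope, so these rates do not carry over to them.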

Additional observations from a re-analysis of the deposited data

Results flagged for a closer look

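The luteolin effect differed between A2780 and ES2 for many genes when the difference itself was tested in limma over 24 libraries: 3641 genes had a more positive effect in A2780 and 3472 a more negative one. The 8 largest differences in each direction among genes that were also past the threshold for luteolin in A2780 and have an established symbol are given here, which leaves out genes that changed in ES2 alone, as the A2780 effect minus the ES2 effect, with both effects. HES1 (difference 3.79 ± 0.41; 4.01 in A2780 and 0.21 in ES2) had widely spread luteolin libraries in ES2, at 63.3, 23.5 and 96.3 scaled TPM. FOSL1 (3.29 ± 0.17; 3.53 and 0.23) was already abundant in ES2, at 696 scaled TPM with luteolin and 593 with DMSO. PLK2 (3.81 ± 0.21; 3.74 and −0.07) was at 140 and 146 scaled TPM in ES2. The matricellular gene CCN2 (3.57 ± 0.14; 2.84 and −0.73) and the NAD-synthesis enzyme NMNAT2 (3.38 ± 0.20; 1.41 and −1.97) moved in opposite directions in the lines, as did the histone gene H4C8 (3.04 ± 0.41; 2.06 and −0.98). DUX4 (5.31 ± 0.63; 5.63 and 0.32) and SULF2 (4.17 ± 0.18; 4.16 and −0.01) rose in A2780, while in ES2 they were not called.

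In the other direction stood 3 targets of ATF4 and 5 other genes. ASNS (−3.42 ± 0.07; −0.30 and 3.11) was at 188 scaled TPM with luteolin and 20.8 with DMSO in ES2. The glutathione-degrading enzyme CHAC1 (−3.08 ± 0.12; 0.79 and 3.87) and the stress regulator NUPR1 (−2.81 ± 0.25; 0.95 and 3.76) rose in both lines and by more in ES2. PSMB9 (−3.29 ± 0.22; −2.68 and 0.61), the actin bundler LCP1 (−2.95 ± 0.18; −0.88 and 2.07), SPX (−2.79 ± 0.21; −0.68 and 2.11) and REEP6 (−2.66 ± 0.19; −1.22 and 1.44) went opposite ways. MT1F (−2.67 ± 0.42) fell in A2780 (−2.70) and had an effect of −0.03 in ES2.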

How the results depend on the processing

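Of the results that answer a comparison, 259 values under an alternative stayed within the limits of change used here (1.5 times for a count) and 16 did not. With TPM as deposited, which does not centre the median change, luteolin gave 2585 genes lower and 202 at least 2-fold lower; the line difference gave 2104 and 266 more negative; the treatment difference gave 5631 positive and 1861 negative, 1708 and 232 of at least 2-fold. The pseudocount moved the 2-fold counts: 1342 higher and 1178 more positive between lines at 0.1, and at 5, 276 and 220 for luteolin, 268 and 191 between lines, and 296 and 296 between treatments. Leaving out 1 library in turn gave 3812 to 4093 genes higher and 3932 to 4173 lower (at least 2-fold 777 to 896 and 351 to 444). In the line difference it gave 3349 to 3611 and 3236 to 3514 (745 to 801 and 418 to 493), and in the treatment difference 3218 to 3509 and 3472 to 3759 (860 to 991 and 505 to 615). The class shares then differed by 1.76 to 1.92 (retained intron), 0.755 to 0.880 (processed transcript), 0.116 to 0.215 (decay) and 2.63 to 3.97 (mitochondrial) percentage points.

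Libraries of the same number did not visibly deviate together (correlations 0.04, −0.05 and −0.04, against −0.06 to 0.10 for other pairs). No luteolin library correlated best with its own number except the first. Whether libraries of the same number share a culture or preparation is not stated, and correlations within groups of 3 libraries cannot decide it. With the replicate number as a block 4171 genes were higher and 4143 lower. Direction changed for ASNS (0.01), CKS2 (0.02), BUB3 (0.00) and SFN (−0.10) with quantile normalization. The cause was not tested. Depth is unknown, and 3 libraries a group limit the precision.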

Other observations

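Genes of matrix, cytoskeleton and the YAP and TGF-beta responses held some of the larger rises with luteolin: 18 of 30 tested were higher and 5 lower (median 0.27). The matricellular protein THBS1 was at 59.3, 67.4 and 81.6 scaled TPM with luteolin and 8.20, 8.98 and 10 with DMSO (2.80 ± 0.11). CCN1 was at 185, 197 and 210 with luteolin and 44.1, 45.2 and 41.2 with DMSO (2.15 ± 0.06), and the YAP targets AMOTL2 (1.38 ± 0.06) and LATS2 (0.70 ± 0.05) were higher, while ANKRD1, another target, was lower (−0.50 ± 0.06). SNAI1 (1.63 ± 0.16) and SNAI2 (1.14 ± 0.08), repressors of epithelial genes, were higher. The ligand TGFB1 was lower, at 19.1, 19.3 and 18.1 with luteolin and 43.4, 45.5 and 39.2 with DMSO (−1.14 ± 0.06), as were COL1A1 (−0.63 ± 0.12) and COL3A1 (−0.37 ± 0.05; −0.15 and not called with TPM as deposited).

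Of a list of DUX4 and its targets (19 genes), 8 were tested, 6 were higher and 0 lower, or 3 and 0 with quantile normalization. RFPL4B was at 2.55, 3.13 and 4.23 scaled TPM with luteolin and 0.0395, 0.398 and 0.129 with DMSO (1.85 ± 0.18), and ZSCAN4 was at 1.21, 1.84 and 1.97 with luteolin and 0.267, 0.393 and 0.164 with DMSO (1.06 ± 0.16). These levels are low in both groups, and LEUTX, TRIM43 and KDM4E were too low to test.

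Among autophagy and lysosome genes 15 of 30 were higher and 5 lower, or 16 and 1 with quantile normalization. The receptor SQSTM1 (p62) was at 216, 200 and 181 scaled TPM with luteolin and 53.5, 60.4 and 57.1 with DMSO (1.78 ± 0.10), and GABARAPL1 was at 59.2, 56.9 and 62.4 with luteolin and 16.7, 20.6 and 19.1 with DMSO (1.61 ± 0.10). The arrestin-like genes TXNIP (1.54 ± 0.09) and ARRDC3 (2.08 ± 0.09), which act in glucose uptake and receptor turnover, were higher. Of 20 cytokine genes 4 were expressed enough to test in A2780, and LIF and CSF1 (1.15 ± 0.15) were higher, while in the fit of both lines 11 of 14 were higher and 2 lower in ES2.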
